A study of Mus musculus with 4 samples.

Results

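Neutrophil granule and maturation genes were followed in RNA sequencing libraries of B cells from mouse bone marrow, a sort in which neutrophil transcripts are not the target. The 33 genes were chosen by name, as genes of the primary, secondary and tertiary granules, cytosolic and secreted neutrophil proteins, a transcription factor of granule formation, and surface receptors. Of these, 32 matched a symbol among the 24411 genes in the files, and Ly6g is not analysed here. The study set mice with Arid5b overexpression against wildtype mice, with 2 libraries each. Arid5b is a DNA-binding protein of the ARID family. Cells positive for B220, the B lineage form of CD45, had been sorted by flow cytometry from the marrow of tibia and femur, and RNA was extracted from them. Wildtype libraries 1 and 2 carry the titles RY1381 and RY1384, and the overexpression-labelled libraries 1 and 2 the titles RY1388 and RY1390. The genotype is the only difference that the labels give between the groups. Strain, age, sex, the promoter that drives Arid5b, and whether animals were pooled are not given in the sources used here.

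Neutrophils arise in the marrow from myeloid precursors, and their granules are filled in waves. Primary (azurophil) granules form first, at the promyelocyte stage, and hold myeloperoxidase and serine proteases. Secondary (specific) granules form in myelocytes and metamyelocytes and hold lactoferrin, cathelicidin and lipocalin, and tertiary (gelatinase) granules follow. Most receptors for chemokines, formyl peptides and growth factors come up late, in the maturing cell. C/EBP-epsilon is needed for the secondary granule genes, and PU.1 acts earlier in the myeloid lineage.

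The stretches before the start sites of 6 granule genes are printed because they carry large differences between the libraries described below, or lie beside such a gene. The secondary granule genes Camp, Ngp and Ltf lie on chromosome 9, and the primary granule genes Prtn3 and Elane are neighbours on chromosome 10. Lcn2 on chromosome 2 is the secondary granule gene with the next most reads after Ngp. Each stretch is the 250 bases before the gene's RefSeq start on GRCm38.p6, read 5′ to 3′ on the gene's own strand. Capitals mark matches, on either strand, to TTGCNNAA, a form of the C/EBP motif, or to GAGGAA, the core of many PU.1 sites; the letters printed for a match on the other strand are the reverse complement. GENCODE M21 places the outermost start of each of these genes inside or upstream of its window. The windows are chr9:110419558-110419807 on the plus strand for Ngp, chr9:111019042-111019291 on the plus strand for Ltf and chr9:109849457-109849706 on the minus strand for Camp. That of Lcn2 is chr2:32387740-32387989 on the minus strand, and those of Prtn3 and Elane are chr10:79879417-79879666 and chr10:79886062-79886311, both on the plus strand.
Ngp: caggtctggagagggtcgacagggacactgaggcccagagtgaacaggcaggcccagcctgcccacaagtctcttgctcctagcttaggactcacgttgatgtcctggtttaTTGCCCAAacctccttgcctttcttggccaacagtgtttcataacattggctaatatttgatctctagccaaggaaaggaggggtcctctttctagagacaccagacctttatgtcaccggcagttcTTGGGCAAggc
Ltf: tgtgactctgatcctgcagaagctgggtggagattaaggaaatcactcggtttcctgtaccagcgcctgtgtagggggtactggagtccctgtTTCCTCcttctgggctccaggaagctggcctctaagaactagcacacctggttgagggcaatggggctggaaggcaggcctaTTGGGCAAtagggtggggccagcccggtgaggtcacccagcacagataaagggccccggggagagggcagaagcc
Lcn2: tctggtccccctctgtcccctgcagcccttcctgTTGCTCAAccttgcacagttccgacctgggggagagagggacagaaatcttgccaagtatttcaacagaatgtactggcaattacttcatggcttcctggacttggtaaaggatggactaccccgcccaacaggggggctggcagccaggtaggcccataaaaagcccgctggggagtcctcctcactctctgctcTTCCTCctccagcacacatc
Camp: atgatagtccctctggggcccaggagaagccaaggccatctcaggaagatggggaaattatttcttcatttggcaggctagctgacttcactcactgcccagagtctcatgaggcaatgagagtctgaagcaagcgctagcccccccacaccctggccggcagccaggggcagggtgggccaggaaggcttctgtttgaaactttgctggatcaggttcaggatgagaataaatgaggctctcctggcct
Prtn3: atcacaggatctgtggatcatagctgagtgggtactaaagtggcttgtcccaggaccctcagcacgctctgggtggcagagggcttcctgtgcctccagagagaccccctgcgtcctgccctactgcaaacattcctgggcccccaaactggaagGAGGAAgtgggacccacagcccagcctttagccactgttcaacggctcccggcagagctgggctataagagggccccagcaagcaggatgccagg
Elane: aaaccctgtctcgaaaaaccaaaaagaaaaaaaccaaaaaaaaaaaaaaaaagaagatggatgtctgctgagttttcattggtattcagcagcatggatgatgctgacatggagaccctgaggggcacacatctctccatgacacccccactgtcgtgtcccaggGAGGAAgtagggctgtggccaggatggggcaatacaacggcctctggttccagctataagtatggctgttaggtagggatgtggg

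Ngp held 2 C/EBP matches, which begin 138 and 11 bases before its start. Ltf held a C/EBP match at 75 bases and a PU.1 match at 157 bases, and Lcn2 held them at 216 and 20 bases. Camp held neither motif. Prtn3 and Elane each held a PU.1 match, at 95 and 85 bases, and no C/EBP match. RefSeq start sites were found for 30 of the 33 genes. The C/EBP letters occurred in 10 of the 30 and in 5 of 10 secondary granule genes, against 9.56% of all 32851 promoters in the table. The PU.1 letters occurred in 18 of the 30 and in 6 of the 10, against 23.3% of all promoters. A match of letters is a description of the sequence and not a measured binding site.

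The wildtype libraries held 20146878 reads (library 1) and 14196665 reads (library 2), and the overexpression-labelled ones 15281839 (library 1) and 20356404 (library 2). Levels are given as reads or as CPM (reads per 1000000 reads of the library), and 3 reads, the upper limit that a count of 0 allows, are worth 0.147 to 0.211 CPM. Arid5b, the gene named in the labels, stood at 149 and 174 CPM in the wildtype libraries, at 3804 CPM in overexpression-labelled library 1 and at 136 CPM in overexpression-labelled library 2. The level in the second of these goes against its label, so the libraries are called by their labels throughout and no direction is drawn from the label for that library. Across the 12617 genes tested, the Pearson correlation of the deposited log2 values was 0.982 between the wildtype libraries and 0.964 and 0.977 between each of them and overexpression-labelled library 2. Those with overexpression-labelled library 1 ran from 0.786 to 0.792. Xist, which is expressed from the inactive X chromosome of females, had 24 reads in wildtype library 1 and 68540 to 132008 in the others, so the wildtype libraries differ in sex-linked expression as well. All 12 genes of the B lineage list had reads in every library, led by Ptprc, which encodes CD45, and Cd79a. They summed to 5720 and 6478 CPM in the wildtype libraries and to 3744 and 6375 CPM in the overexpression-labelled ones. The lower sum in overexpression-labelled library 1 was not shared by all of them. Ptprc and Ms4a1 had 372 and 9.75 CPM there against 1772 and 410 in wildtype library 1. Ebf1 and Pax5 had 931 and 320 CPM there against 585 and 145.

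The sum of the neutrophil genes was lowest in wildtype library 1 and highest in overexpression-labelled library 2. The 32 genes together took 84.6 CPM in wildtype library 1 (95% exact interval 80.7 to 88.7) and 208 CPM in wildtype library 2 (201 to 216). They took 310 CPM in overexpression-labelled library 1 (301 to 318) and 2080 CPM in overexpression-labelled library 2 (2060 to 2100). Intervals here and below cover counting error only, since reads without molecular identifiers are not independent molecules. Reads were found for 22, 26, 30 and 32 of the 32 genes in that order of libraries, and 20 genes had reads in all 4. Overexpression-labelled library 2 was the highest for 30 of the 32 genes, and wildtype library 1 alone was the lowest for 18, and level at 0 with others for 4 more. In sorted cells measured in bulk, more cells of a type and more RNA per cell cannot be told apart.

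**Figure D1:**
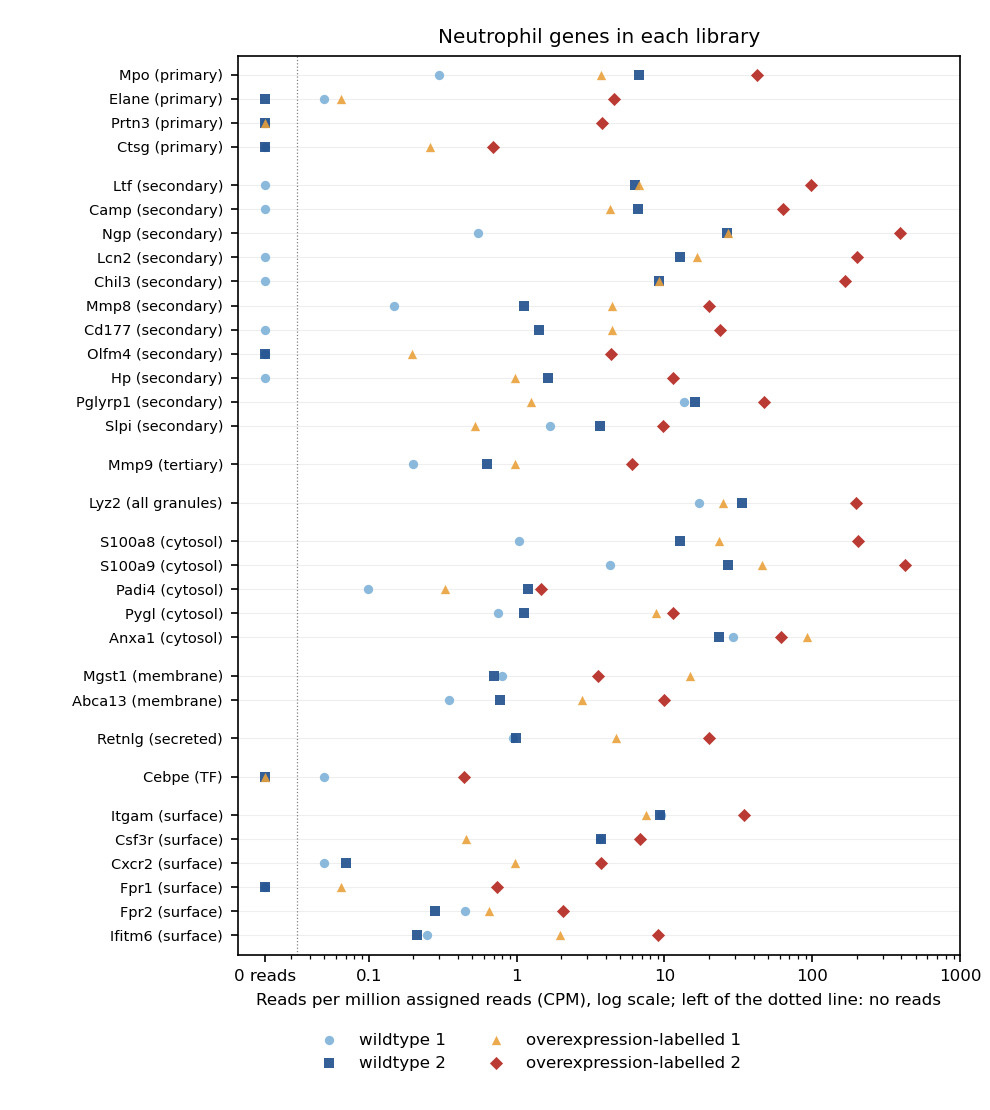
Level of each of the 32 neutrophil genes in each library, as CPM on a log axis, with genes ordered by role and points left of the dotted line standing for libraries without a read. Overexpression-labelled library 2 lies to the right of the other libraries for 30 genes, and 10 genes have no read in wildtype library 1.

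Of the primary granule genes, Elane, Prtn3 and Ctsg had 4 or fewer reads in all libraries but the last, while Mpo had reads in all 4. Mpo, myeloperoxidase, had 6 reads in wildtype library 1, 95 in wildtype library 2, 57 in overexpression-labelled library 1 and 858 in overexpression-labelled library 2. Elane, neutrophil elastase, had 1, 0, 1 and 93 reads in the same order. Prtn3, proteinase 3, was without a read in the first 3 libraries and had 77 in overexpression-labelled library 2. These 2 protease genes therefore had reads above the limit that a count of 0 allows in a single library. Ctsg, cathepsin G, had 0, 0, 4 and 14 reads. The 4 genes summed to 0.347, 6.69, 4.06 and 51.2 CPM. The positions are on mm10. Mpo, on chromosome 11 (87793581 to 87804413), has exons that overlap Gm11505 on the opposite strand, and Prtn3 overlaps Plppr3 on the opposite strand. The strand setting of the counting is not given in the sources used here, so reads of such partners cannot be told apart.

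Secondary granule genes made up most of the granule reads. Ngp, neutrophilic granule protein, had the most reads of them in 3 of the 4 libraries, with 11 reads in wildtype library 1, 378 in wildtype library 2, 410 in overexpression-labelled library 1 and 7938 in overexpression-labelled library 2. In CPM these were 0.546, 26.6, 26.8 and 390. Wildtype library 2 and overexpression-labelled library 1 thus lay side by side, far above the first library and far below the last. Lcn2, the siderophore-binding lipocalin, had 0, 182, 252 and 4068 reads in that order. Chil3, a chitinase-like protein, had 0, 131, 141 and 3404 reads. Ltf, the iron-binding lactoferrin, had 0, 90, 103 and 1989 reads. Camp, the cathelicidin precursor, had 0, 94, 65 and 1286 reads. All 4 genes had no read in wildtype library 1 and were by far the highest in overexpression-labelled library 2, with the other libraries in between.

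The other secondary granule genes did not all follow that order. The collagenase Mmp8 had 3, 16, 68 and 407 reads. Cd177, a glycoprotein of granule and surface membranes, had 0, 20, 67 and 480 reads, so that both genes stood higher in overexpression-labelled library 1 than in wildtype library 2. Hp, haptoglobin, had 0, 23, 15 and 232 reads. Olfm4, found in the granules of a subset of neutrophils, had 0, 0, 3 and 88 reads. Pglyrp1, a peptidoglycan recognition protein, had 271, 227, 19 and 954 reads, and the protease inhibitor Slpi had 34, 52, 8 and 199. For Pglyrp1 and Slpi, unlike the genes above, overexpression-labelled library 1 was the lowest, and both wildtype libraries had reads. The 11 secondary granule genes summed to 15.8 CPM in wildtype library 1, 85.4 in wildtype library 2, 75.3 in overexpression-labelled library 1 and 1034 in overexpression-labelled library 2. Olfm4 shares exons with Gm6999 and Slpi with Mir7678, each on the same strand. Chil4, a near copy of Chil3, had 0, 0, 0 and 5 reads.

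Mmp9, the gelatinase of tertiary granules, had 4, 9, 15 and 123 reads, which are 0.199, 0.634, 0.982 and 6.04 CPM. Its order over the libraries was that of the sum over all genes. Lyz2, the lysozyme found in every class of granule and also in monocytes and macrophages, had 343, 477, 380 and 4045 reads. Lyz2 was thus far less uneven among the first 3 libraries than the secondary granule genes were. Its near copy Lyz1 had 0, 6, 0 and 0 reads. Of the reads on primary, secondary and tertiary granule genes together, secondary granule genes took 96.7%, 92.1%, 93.7% and 94.8%. Primary granule genes took 2.12% (95% exact interval 0.857 to 4.32), 7.21% (5.87 to 8.75), 5.05% (3.89 to 6.43) and 4.69% (4.42 to 4.98). The share in overexpression-labelled library 2, where the level was highest, lay above that of wildtype library 1 and below that of wildtype library 2. It rests mainly on Mpo, which gave all 95 primary granule reads in wildtype library 2 and 858 of 1042 in overexpression-labelled library 2. In wildtype library 1, Pglyrp1 and Slpi gave 271 and 34 of the 319 secondary granule reads. The shares of that library thus rest on these genes, which did not follow the order of the others, and on 7 primary granule reads. Its place below the other libraries is therefore not read as a difference in granule make-up.

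A calprotectin gene had the most reads per length of exon in 3 of the 4 libraries. S100a9 and S100a8 form calprotectin, the main cytosolic protein of neutrophils, and lie close to each other on chromosome 3 (90692632 to 90695721 and 90668978 to 90670035). S100a9 had 86, 384, 697 and 8593 reads, and S100a8 had 21, 180, 356 and 4120. Both genes rank the libraries as the sum does, and they had more reads in overexpression-labelled library 1 than in wildtype library 2. As RPKM (CPM per kilobase of exon), S100a9 reached 809 in overexpression-labelled library 2, ahead of Ngp at 319 and S100a8 at 292. On the same scale S100a9 led in wildtype library 2 at 51.8 and in overexpression-labelled library 1 at 87.4, while in wildtype library 1 Lyz2 led at 12.9.

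Other cytosolic, membrane and secreted proteins were highest in one or the other overexpression-labelled library. Anxa1, the lipocortin annexin that many cell types make, had 586, 332, 1409 and 1257 reads. Mgst1, a microsomal glutathione transferase on chromosome 6 (138140316 to 138156755), had 16, 10, 229 and 72 reads. In CPM these 2 genes alone were highest in overexpression-labelled library 1, at 92.2 against 61.7 for Anxa1 and at 14.99 against 3.54 for Mgst1. Pygl, the glycogen phosphorylase of liver and leukocytes, had 15, 16, 134 and 231 reads, and the transporter Abca13 had 7, 11, 42 and 202. Retnlg, a resistin-like secreted protein, had 19, 14, 72 and 409 reads. Pygl, Abca13 and Retnlg were low in both wildtype libraries and higher in both others. Padi4, the deiminase that citrullinates histones in neutrophils, had 2, 17, 5 and 30 reads. Cebpe, the transcription factor C/EBP-epsilon, had 1, 0, 0 and 9 reads and was above 3 reads in a single library.

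Surface genes summed to similar levels in the first 3 libraries. Itgam, the alpha M chain of the integrin Mac-1, had 190, 133, 115 and 706 reads, which are 9.43, 9.37, 7.53 and 34.7 CPM. Csf3r, the receptor for granulocyte colony-stimulating factor, had 74, 53, 7 and 140 reads, with overexpression-labelled library 1 the lowest. Both receptors are also found on monocytes. Cxcr2, a chemokine receptor, had 1, 1, 15 and 76 reads. The formyl peptide receptor Fpr1 had 0, 0, 1 and 15 reads, and Fpr2 had 9, 4, 10 and 42. Ifitm6, a membrane protein of the interferon-induced family, had 5, 3, 30 and 185 reads. The 6 genes summed to 13.8, 13.7, 11.6 and 57.2 CPM. In the wildtype libraries nearly all of these reads were of Itgam and Csf3r, and the likeness of the sums rests on those genes. The other surface genes had 0 to 9 reads in each wildtype library, too few to compare. The sum in overexpression-labelled library 1 joins a lower Csf3r with higher Cxcr2 and Ifitm6. Fpr2 shares exons with Fpr3, which had no reads in any library, and Itgam shares exons with Gm49368 on the same strand.

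The wildtype libraries differed most in the secondary granule genes. Of the 26 neutrophil genes with enough reads to test, 12 had normalised reads at least 4-fold higher in wildtype library 2 than in wildtype library 1 and 0 were 4-fold lower. Over all 12617 genes tested, 1.39% were 4-fold higher and 0.919% were 4-fold lower. The median fold was 3.12 for the neutrophil genes and 1.01 for all genes. With 1 library on each side there is no test of this difference. The labels give the wildtype libraries no batch, and the sex-linked difference cannot be told apart from any other difference between them.

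Ngp was 47.7-fold higher in wildtype library 2 (95% counting interval 26.3 to 96.3), and Mpo was 21.97-fold higher (9.73 to 61.4). For genes without a read in wildtype library 1, that library was set to the limit of 3 reads and the fold is a lower bound. On that basis Lcn2 was at least 84.2-fold higher, Chil3 at least 60.6-fold, Camp at least 43.5-fold and Ltf at least 41.6-fold. Hp and Cd177 had the bounds of 10.6-fold and 9.25-fold. All 8 of these genes are granule genes. S100a8 was 11.9-fold higher (7.55 to 19.7) and S100a9 was 6.19-fold higher (4.89 to 7.92). Mmp8 and Padi4 complete the 12 at 7.399-fold (2.12 to 39.6) and 11.8-fold (2.80 to 105), each from 3 or fewer reads in wildtype library 1.

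A further group of neutrophil genes hardly differed between the wildtype libraries. The ratio of wildtype library 2 to wildtype library 1 was 1.16 for Pglyrp1 (0.9698 to 1.39), 0.971 for Itgam (0.772 to 1.22) and 0.994 for Csf3r (0.685 to 1.43). Retnlg had a ratio of 1.02 (0.474 to 2.15). These genes had 14 to 271 reads in each wildtype library, so a difference of the size seen for Ngp lay outside their intervals. Lyz2 was 1.93-fold higher in wildtype library 2 (1.68 to 2.22) and Slpi 2.12-fold (1.35 to 3.37). Anxa1 went the other way, with a ratio of 0.786 (0.685 to 0.901). The spread between wildtype libraries was therefore wide for 8 of the 10 secondary granule genes tested and under 4-fold for Pglyrp1 and Slpi.

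**Figure D2:**
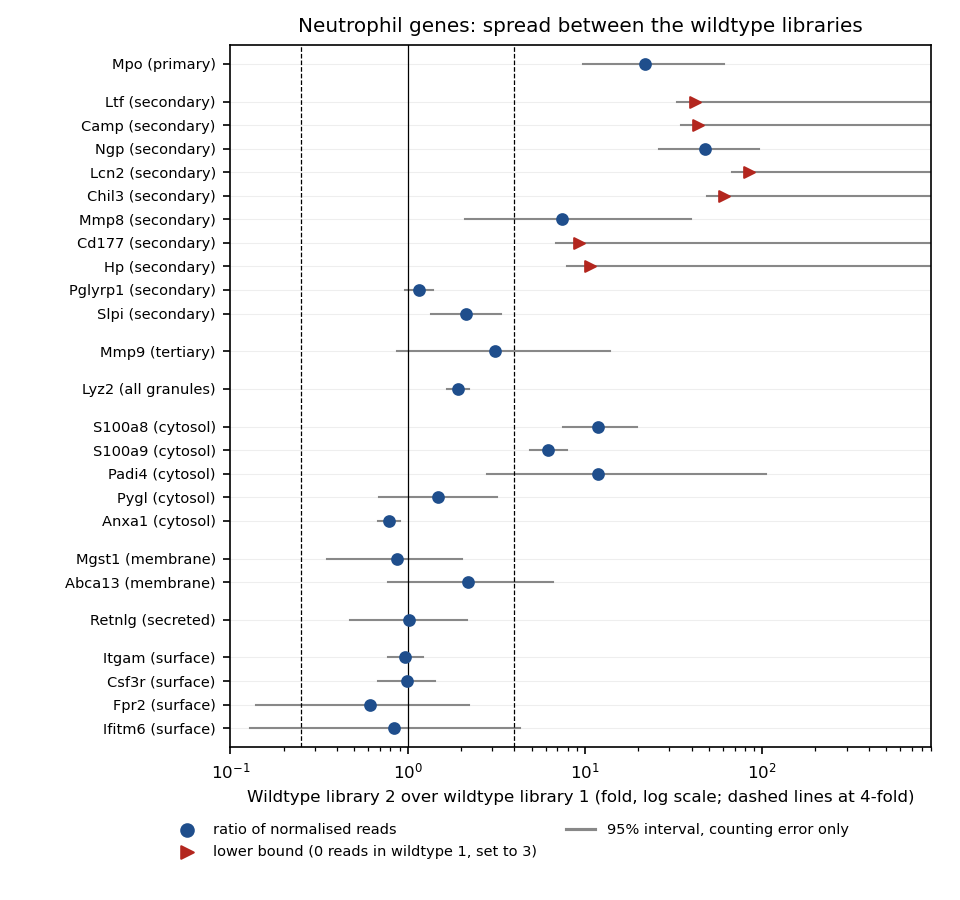
Ratio of normalised reads in wildtype library 2 to those in wildtype library 1 for the 25 neutrophil genes with a fold, on a log axis, with 95% counting intervals; triangles are lower bounds for genes without a read in wildtype library 1. Most secondary granule genes lie beyond the dashed line at 4-fold on the right, while Pglyrp1 and the surface genes Itgam and Csf3r lie at 1.

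Neutrophil genes rose in overexpression-labelled library 2 over the wildtype pair. In limma's test across all genes, with Benjamini-Hochberg adjustment and a threshold of 0.05, 21 of the 26 genes were higher and 0 were lower. Over all genes tested, 0.769% were called higher and 0.888% lower in this comparison. The median difference was 2.995 for the neutrophil genes and 0.013 for all genes, on the deposited log2 scale, where changes of weakly expressed genes come out too small. With a single library on this side, its spread had to be taken from the wildtype pair. The calls depend on the setting: with no filter on low counts, and with a filter on the mean of at least 10 reads per library, 0 of the neutrophil genes and 0 of all genes passed. Other log scales, other scalings and a robust prior called 7 to 12 neutrophil genes, and limma-voom on reads called 22.

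By role, 9 of 10 secondary granule genes tested were called higher, as were Mpo, Mmp9 and Lyz2, 4 of 5 cytosolic genes, and Abca13 and Retnlg. Lyz2 had the lowest adjusted p among them, with a difference of 2.99 (SE 0.28, limma adjusted p = 0.0011). S100a9 differed by 5.07 (SE 0.59, limma adjusted p = 0.0023) and Retnlg by 3.28 (SE 0.36, limma adjusted p = 0.0014). These 3 genes had reads in both wildtype libraries. Ngp differed by 5.82 (SE 1.00, limma adjusted p = 0.014), Lcn2 by 5.94 (SE 1.06, limma adjusted p = 0.018) and Chil3 by 5.89 (SE 0.97, limma adjusted p = 0.011). Their differences were the largest, and the calls of Ngp, Lcn2 and Chil3 were kept in 1 of 8 alternative settings, limma-voom, as were those of Ltf, Camp, Hp and Mpo. Of the surface genes, Itgam differed by 1.75 (SE 0.24), Ifitm6 by 3.004 and Cxcr2 by 2.35. Ifitm6 and Cxcr2 passed the filter on reads only through the overexpression-labelled libraries. The genes that did not pass were Fpr2, Csf3r, Padi4, Mgst1 and Slpi, with differences of 0.71 to 1.53 and limma adjusted p from 0.079 to 0.52.

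Set against the higher of the wildtype libraries alone, overexpression-labelled library 2 was above wildtype library 2 for all 32 genes, with a median of 10.02-fold. Ngp was 14.96-fold higher (95% counting interval 13.5 to 16.6), S100a9 was 15.9-fold higher (14.4 to 17.7) and Chil3 was 18.5-fold higher (15.5 to 22.2). Mpo was 6.43-fold higher (5.20 to 8.04). Elane, which had no read in wildtype library 2, was at least 22.1-fold higher, and Prtn3 at least 18.3-fold. Itgam, at 3.78-fold (3.14 to 4.59), Pglyrp1, at 2.99-fold (2.59 to 3.48), and Csf3r, at 1.88-fold (1.36 to 2.63), had smaller ratios. Padi4 had a ratio of 1.26 with an interval from 0.671 to 2.43. Against wildtype library 1 the median was 28.8-fold, and the bound for Lcn2 was at least 1340-fold.

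In overexpression-labelled library 1, the library with 3804 CPM of Arid5b, neutrophil genes were called in both directions. Of the 26 tested, limma called 10 higher and 3 lower than the wildtype pair, and 13 did not pass. In this comparison 26.8% of all genes tested were called higher and 34.4% lower, so calls were frequent throughout. Without a filter on low counts limma called 5 neutrophil genes higher and 1 lower, and with a mean of at least 10 reads per library 6 higher and 2 lower. The median difference was 1.20 for the neutrophil genes and -0.15 for all genes. That median of all genes was 0.017 when libraries were scaled by their totals without the ribosomal RNA gene Rn45s. The median of the neutrophil genes was 1.46 against wildtype library 1 alone and 0.22 against wildtype library 2 alone. The comparisons of the overexpression-labelled libraries share the wildtype libraries.

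The genes called higher in overexpression-labelled library 1 were mostly outside the granules. Mgst1 differed by 2.91 (SE 0.38, limma adjusted p = 2.4e-05) and Anxa1 by 1.62 (SE 0.20, limma adjusted p = 1.2e-05). Pygl differed by 2.09 (SE 0.39, limma adjusted p = 0.00048). S100a8 and S100a9, the calprotectin chains, differed by 1.97 and 1.74, and Retnlg, Ifitm6 and Abca13 by 1.34, 1.24 and 1.15. Of these, Ifitm6 passed the filter on reads only through the overexpression-labelled libraries. Mmp8 and Cd177, at 1.68 and 1.89, were the secondary granule genes among the 10. Pglyrp1 fell by 2.74 (SE 0.31, limma adjusted p = 6.5e-06), Csf3r fell by 1.69 (SE 0.39, limma adjusted p = 0.0022) and Slpi fell by 1.24 (SE 0.44, limma adjusted p = 0.025). Mgst1 and Pglyrp1 kept their calls under all 8 alternative settings tried. S100a8 kept its call in 3 of the 8 and S100a9 in 4.

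The most abundant secondary granule genes did not pass in overexpression-labelled library 1. Ngp differed by 1.88 (SE 0.99, limma adjusted p = 0.11), Lcn2 by 2.30 (SE 1.06, limma adjusted p = 0.073) and Ltf by 1.62 (SE 0.88, limma adjusted p = 0.12). Against wildtype library 2 alone their ratios were near 1. The ratio was 0.920 for Ngp (95% counting interval 0.798 to 1.06), 1.18 for Lcn2 (0.967 to 1.43), 0.971 for Ltf (0.725 to 1.30) and 0.913 for Chil3 (0.715 to 1.17). Camp was lower, at 0.587 (0.421 to 0.814), as was Mpo, at 0.509 (0.360 to 0.714). Limma-voom on reads called Ngp, Lcn2, Ltf, Chil3 and Camp higher in this library. Against wildtype library 2, Mgst1 was 19.4-fold higher (10.4 to 41.1), Pygl 7.11-fold (4.22 to 12.8), Anxa1 3.60-fold (3.19 to 4.07) and Mmp8 3.61-fold (2.07 to 6.66). Pglyrp1 was 14.1-fold lower and Csf3r 8.92-fold lower. For Lyz2 the difference was -0.089 on the deposited scale, and 0.018 and 0.098 with recomputed size factors and with totals without Rn45s, so it has no direction.

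**Figure D3:**
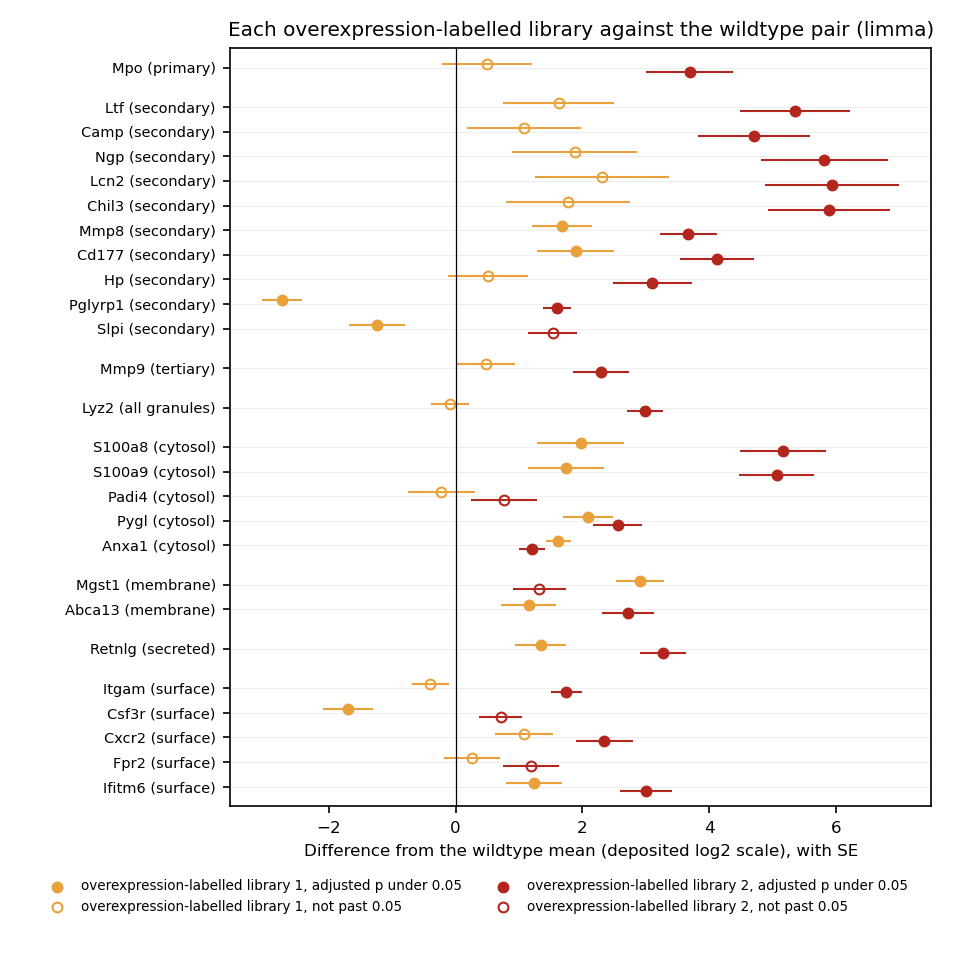
Difference of each overexpression-labelled library from the mean of the wildtype libraries for the 26 tested neutrophil genes, on the deposited log2 scale, with the standard error from limma; filled points have an adjusted p under 0.05. In overexpression-labelled library 2 all 26 differences lie right of 0, from 0.71 to 5.94, while in overexpression-labelled library 1 they run from -2.74 for Pglyrp1 to 2.91 for Mgst1.

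The comparison that the study's labels set up, both overexpression-labelled libraries against both wildtype libraries, called none of the neutrophil genes. With limma, 0 of 26 passed, and 0% of the 12617 genes tested did; at an unadjusted p under 0.05 there were 9 neutrophil genes and 280 genes in all. By limma-voom no gene passed either, and 186 had an unadjusted p under 0.05. The smallest limma adjusted p was 0.73. An exact permutation test of 2 libraries against 2, two-sided, cannot go below p = 0.333. The median difference was 2.10 for the neutrophil genes and -0.078 for all genes, and 24 of the 26 were positive. Ngp differed by 3.85 (SE 1.90, limma adjusted p = 0.73) and Pygl by 2.33 (SE 0.46, limma adjusted p = 0.73). Both overexpression-labelled libraries stood above both wildtype libraries for 14 of the 26 genes, and below them for 0. Over all genes tested, 19.6% stood above and 23.0% below. The 14 include Pygl, Anxa1, Mgst1, Retnlg, S100a8 and S100a9. They also include Cxcr2, Ifitm6 and Fpr2, which passed the filter on reads only through the overexpression-labelled libraries. The place of those genes above the wildtype libraries was thus set by the filter. The same holds for their part in the 24 positive differences and in the median of 2.10. It also holds for Cxcr2 and Ifitm6 among the 9 genes with an unadjusted p under 0.05 in limma. The groups overlapped for the other 12, among them Mpo, Camp, Pglyrp1, Slpi, Itgam and Csf3r.

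The make-up of the neutrophil reads was then compared by setting each gene against 100 reads of Ngp in the same library. Per 100 reads of Ngp, Ltf had 23.8 reads in wildtype library 2 (95% counting interval 18.7 to 30.0), 25.1 in overexpression-labelled library 1 and 25.1 in overexpression-labelled library 2. Lcn2 had 48.1, 61.5 and 51.2 in that order, and Chil3 had 34.7, 34.4 and 42.9. S100a8 had 47.6, 86.8 and 51.9, and S100a9 had 102, 170 and 108. In S100a8 and S100a9 the ratio in overexpression-labelled library 1 had an interval apart from both others. Wildtype library 1, with 11 reads of Ngp, has too few of them for such ratios.

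Between wildtype library 2 and overexpression-labelled library 2, the counting intervals of these ratios lay apart for 11 of 31 genes. All 11 were higher per Ngp read in wildtype library 2. They were Mpo, Camp, Hp, Pglyrp1, Slpi, Lyz2, Padi4, Anxa1, Mgst1, Itgam and Csf3r. Pglyrp1 had 60.1 reads per 100 of Ngp in wildtype library 2 and 12.02 in overexpression-labelled library 2, Csf3r had 14.0 and 1.76, and Itgam had 35.2 and 8.89. Several of these genes had reads in wildtype library 1 too, where Ngp was nearly absent. Between the overexpression-labelled libraries the intervals lay apart for 16 of 31 genes, and Mgst1 stood out at 55.9 in library 1 against 0.907 in library 2, followed by Anxa1 at 344 against 15.8 and Pygl at 32.7 against 2.91. No primary granule gene was among these 16. Elane, Prtn3 and Ctsg had 1, 0 and 4 reads in overexpression-labelled library 1, too few to show a difference, so only Mpo bears on this.

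**Figure D4:**
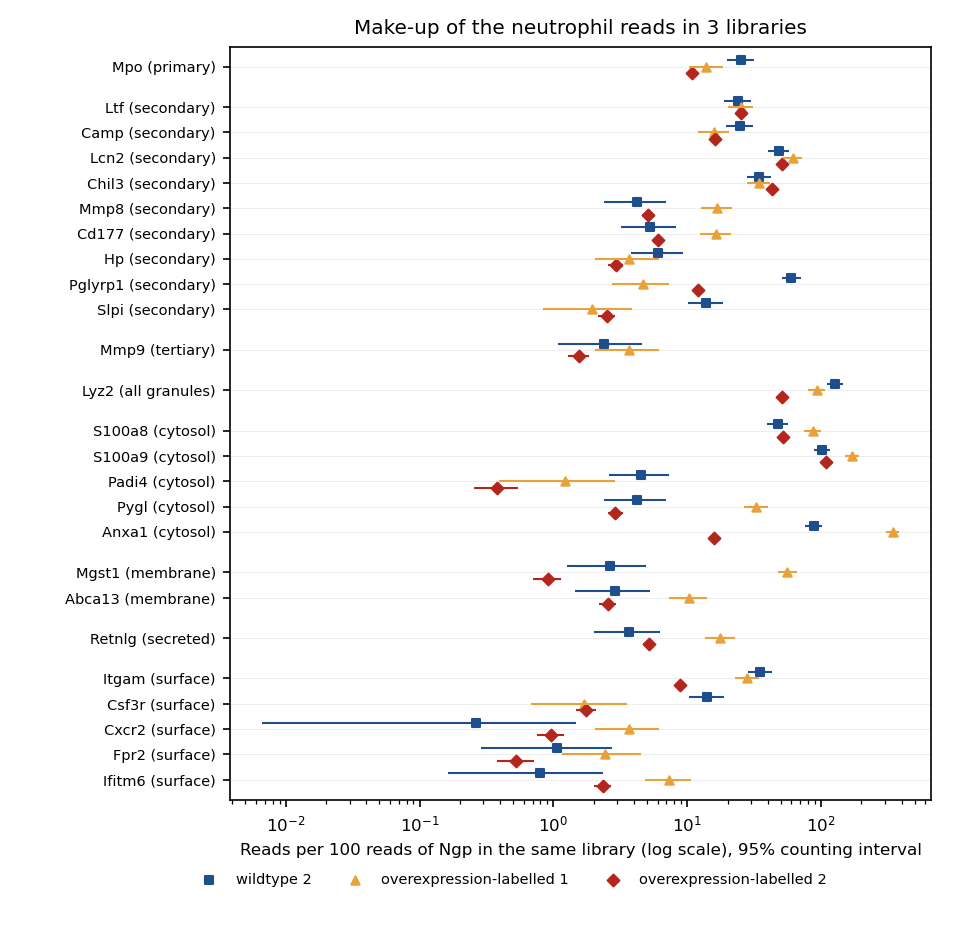
Reads of each neutrophil gene per 100 reads of Ngp in the same library, on a log axis with 95% counting intervals, for the libraries with at least 378 reads of Ngp; genes without a read in wildtype library 2 are left out. Ltf, Lcn2 and Chil3 lie close together in the 3 libraries, while Mgst1, Anxa1 and Pygl lie far to the right in overexpression-labelled library 1.

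A list of 67 other genes of neutrophils was read in the same fits. Of 44 tested in overexpression-labelled library 2, limma called 2 higher and 0 lower (the ficolin Fcnb and the histidine decarboxylase Hdc), where 0.769% of all genes were called higher and 0.888% lower. The median difference was 0.56, against 0.013 for all genes. In overexpression-labelled library 1, limma called 6 of the 44 higher and 22 lower, where 26.8% of all genes were called higher and 34.4% lower. The median was -0.61, against -0.15 for all genes. Genes of the phagocyte NADPH oxidase, which makes superoxide and is also expressed in B cells, were among those lower in overexpression-labelled library 1. Its catalytic chain Cybb had 8641, 7730, 617 and 14936 reads and fell by 3.67 in library 1 (SE 0.15, limma adjusted p = 2.7e-10), and Rac2, Cyba, Ncf1 and Ncf4 fell by 0.46 to 2.79. None of these was called in library 2. Among transcription factors of granule formation, Runx1 was higher in overexpression-labelled library 1, by 0.91, while Spi1, which encodes PU.1, fell by 0.46, Cebpb by 1.35 and Klf5 by 2.79, and Gfi1 did not pass there. Cebpa, with 10, 19, 2 and 6 reads, was too low to test. Of the remaining genes with many reads, Ceacam1, Itgb2, Ckap4, Syne1 and Serpinb1a were not called in library 2. Stfa1, Stfa2 and Cxcr1 had no reads in any library. Gpr84, a receptor for medium-chain fatty acids, had 0, 0, 293 and 2 reads and was picked out after its values were seen.

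Summed markers of other marrow cells stood in other orders over the libraries than the neutrophil genes. The 19 monocyte and macrophage markers matched summed to 106, 119, 62.3 and 148 CPM, and the leading 2, Ms4a6c and Cd68, had 90.4 and 37.6 CPM in overexpression-labelled library 2 against 63.1 and 34.7 in wildtype library 2. Limma called none of the 11 tested in library 2. The eosinophil, basophil and mast cell markers summed to 50.3, 50.2, 1.44 and 44.5 CPM, led by Il5ra and Prg2, and Ear2, Ear6, Siglecf, Mcpt8, Prss34, Cpa3 and Fcer1a were at 0 in all libraries. Erythroid markers summed to 29.3, 29.8, 781 and 18.8 CPM, led by Car2 (772 CPM in overexpression-labelled library 1) and Alas2, with Gata1 and the globin genes of the list at 0. How reads shared by near copies, such as these globin genes, were counted is not given. Their counts of 0 therefore do not show that globin RNA was absent. Plasmacytoid dendritic cell markers, led by Tcf4 and Irf8, summed to 797, 638, 208 and 641 CPM, and T and NK cell markers, led by Il2rb and Lck, to 110, 120, 13.4 and 95.1. Some sums rest on few genes. In wildtype library 1, Tcf4 and Irf8 took 313 and 273 of the 797 CPM, and Il5ra took 49.3 of the 50.3 CPM. Whether reads of such leading genes came from those cell types or from the sorted B cells was not tested. Megakaryocyte markers, led by Itga2b and Gp1ba and with Gp6 at 0, summed to 3.08, 5.001, 1.57 and 6.09 CPM, and stem cell markers, led by Flt3 and Kit, to 22.7, 20.4, 3.73 and 21.9. Some neutrophil genes, such as Lyz2, Anxa1, Itgam and Csf3r, are also expressed by these other cells. The part of cells other than B cells in the neutrophil reads was not tested.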

How the data were processed

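RNA from sorted B220+ marrow cells was sequenced in 4 libraries, of which 2 are labelled wildtype and 2 Arid5b overexpression by genotype; the label of wildtype library 2 is misspelled. The column header of overexpression-labelled library 1 is 1 digit off its title. The tools named in the submitters' processing notes are DESeq2, HTSeq and STAR, run by the authors on build mm10, and versions and settings are not given in the sources used here. Values were deposited in log2 units with a floor of 4.95, at which 6506 of 24411 genes stood in every library. They have the form of a variance stabilizing transformation: with y as 2 raised to the value and K as 2 raised to the floor, (y - K) squared over y, times a size factor per library, gave whole reads within 0.01 for 100% of the values. Genes were tested where 2 or more libraries held 10 or more reads (scaled to the median library total) and all libraries together 15 or more, which left 12617 genes and 26 of the neutrophil genes.

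Differences were tested with limma-trend (limma 3.58.1, R 4.3.3) on the deposited values, two-sided, with Benjamini-Hochberg adjustment over all genes tested and a threshold of 0.05. There were 3 fits: both groups, and each overexpression-labelled library against the wildtype pair. The labels do not say whether libraries came from separate animals, so p-values measure the spread between these libraries. In wildtype libraries 1 and 2, Xist had 24 and 77255 reads, and the Y-linked gene Ddx3y had 3260 and 1. Their spread is thus not that of 1 animal sequenced again, and it includes a sex-linked difference. Whether the spread between the overexpression-labelled libraries is in part technical is not given. Folds are ratios of reads divided by the size factors, with 95% exact intervals; a library at 0 was set to 3 reads, and no fold was given where both libraries had 3 or fewer. Elane, Prtn3, Ctsg, Olfm4, Cebpe and Fpr1 were below the filter, and Cxcr2, Ifitm6 and Fpr2 passed it only through the overexpression-labelled libraries. Genes were matched to GENCODE M21 for positions, exon lengths and overlaps. Promoters came from RefSeq (GRCm38.p6), and the missing entries are Cebpe, Hp and Mmp9. The fits were also run on simulated reads with the means and spread of the wildtype pair and a small set of changed genes. Overexpression-labelled library 1, where calls were frequent, differs from that setting. The simulation therefore does not show how reliable the calls here are. The genes, their roles and the other lists were chosen with earlier results of these data known. All neutrophil genes of the list are named; of the others, those with the most reads in each list (6 per list of neutrophil genes, 2 per list of another cell type) and those at 0 throughout, except that some genes of these lists are not reported here. Alternatives were other log scales, limma-voom, other scalings, other filters, a robust prior and leaving out each library.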

Additional observations from a re-analysis of the deposited data

How the results depend on the processing

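In the comparison of both groups, none of the 8 other settings called a gene. Leaving out 1 library gave 0 to 7721 genes and 0 to 21 neutrophil genes. None of its differences had a call, and those of 6 genes reversed. With a pseudocount of 0.5 or 5 on the log2 scale Slpi stood at -0.19 or -0.10. Leaving out 1 library gave ranges of -1.69 to 0.71 for Csf3r, -0.40 to 1.75 for Itgam, -0.089 to 2.99 for Lyz2, -0.31 to 0.85 for Padi4, -2.74 to 1.59 for Pglyrp1 and -1.24 to 1.53 for Slpi. The reversed values were called by limma for Pglyrp1 at 1.59 without overexpression-labelled library 1 and for Slpi at -1.24 without library 2. In overexpression-labelled library 1, 2642 genes and 6 neutrophil genes were called with no filter, and 8 neutrophil genes with a mean of at least 10 reads, against 7721 and 13. Lyz2 reversed to 0.018 with recomputed size factors and 0.098 with totals without Rn45s. In overexpression-labelled library 2, against 209 genes and 21 neutrophil genes, a pseudocount of 0.5 gave 56 and 7, of 5 gave 128 and 12, limma-voom 614 and 22, recomputed size factors 70 and 12, totals without Rn45s 58 and 11, and the robust prior 165 and 12. Either other filter gave 0 and 0, with 2316 and 1575 genes at an unadjusted p under 0.05. The causes were not tested. Ngp, Ltf, Lcn2, Chil3, Camp, Hp and Mpo kept that call only with limma-voom, while Lyz2, Pglyrp1, Itgam, Pygl and Retnlg kept it in 6 of the 8 settings. Without wildtype library 1 or 2 the median difference of the neutrophil genes ran from 0.22 to 1.46 in overexpression-labelled library 1 and from 2.48 to 3.13 in library 2. With totals without Rn45s, neutrophil genes took 0.0121%, 0.0280%, 0.0445% and 0.290% of reads in the 4 libraries, against 0.00846%, 0.0208%, 0.0310% and 0.208% of all reads. The count of 12 genes past 4-fold between the wildtype libraries was 12 under both other scalings and with no filter, and 15 past 2-fold. No paired analysis was possible because the labels give no replicate numbers. Depth limits Elane, Prtn3, Ctsg, Olfm4, Cebpe and Fpr1, which had 4 or fewer reads in 3 of the 4 libraries.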
